A study of Homo sapiens with 6 samples.

Results

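The IL-1 family genes were examined in RNA sequencing counts of SCC-9 cells depleted of Ki67. The set was given by name as 10 genes, IL1A, IL1B, IL18, IL33, IL36G, IL1RN, IL36RN, IL1R1, IL1RAP and IL1R2, and was looked up by symbol. The count table held 9 of the 10 among its 25349 genes, all 9 passed the filter on low counts that left 14661 genes to test, and IL33 had no entry and is not analysed here. SCC-9 is an established human cell line from a squamous cell carcinoma of the tongue. The cells were transfected by lipofection with 10 nM of an siRNA that targets exon 7 of MKI67, which encodes Ki67 (siE7), or with a nonspecific siRNA (siNC), on day 0 and again on day 2. Each group had 3 libraries of polyadenylated RNA, 6 in all. Both groups grew in medium with serum and 400 ng/mL hydrocortisone, a glucocorticoid. The sources used here do not name which siRNA against exon 7 was used, nor whether the replicates were separate cultures, so the p-values measure the spread between these libraries, which may be technical.

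IL-1 alpha (IL1A) and IL-1 beta (IL1B) are proinflammatory cytokines that bind the receptor IL1R1, which then recruits the accessory protein IL1RAP and signals through the adaptor MYD88 to NF-kB and MAP kinases. The pathway is checked by the receptor antagonist IL1RN, which occupies IL1R1 without signalling, and by IL1R2, a decoy receptor that lacks a signalling domain. IL-36 gamma (IL36G) and its antagonist IL36RN form a related pair that is prominent in keratinocytes, whereas IL-18 and IL-1 beta are made as precursors that inflammasome-activated caspase-1 cleaves.

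The libraries held between 25608192 and 29550264 counts. The level of a gene is given as CPM, the count scaled to the library total and by TMM factors, and the error is the SD over 3 libraries. MKI67, the targeted gene, averaged 1059 ± 26.7 CPM in siNC and 115 ± 8.70 CPM in siE7. The siE7 replicate 1 stood apart from siE7 replicates 2 and 3. It was separated from them on the second principal component, which held 17.8% of the variance, while the first component separated the groups and held 63.6%. Where the call of a gene named in the text turned on this library, this is stated with the value without it. Genes that were only counted in a list can also change their call without it. In bulk libraries, fewer cells that express a gene and less RNA per cell cannot be told apart.

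Most of the family lies in 2 groups of genes on chromosome 2. Identifiers are those of the count table, and positions are those of GENCODE v44 on GRCh38. The ligand genes were IL1A (ENSG00000115008.6) at chr2:112773925-112784493 on the minus strand, IL1B (ENSG00000125538.12) at chr2:112829751-112836816 on the minus strand, IL36G (ENSG00000136688.11) at chr2:112973203-112985658 on the plus strand, IL36RN (ENSG00000136695.15) at chr2:113058638-113065382 on the plus strand and IL1RN (ENSG00000136689.19) at chr2:113099315-113134016 on the plus strand. The receptor genes IL1R2 (ENSG00000115590.14) at chr2:101991960-102028544 and IL1R1 (ENSG00000115594.12) at chr2:102064544-102179874 were both on the plus strand. IL1RAP (ENSG00000196083.10) was at chr3:190514051-190659750 on the plus strand, and IL18 (ENSG00000150782.12) at chr11:112143253-112164096 on the minus strand. IL36G, IL1R1 and IL18 overlap an annotated gene on the opposite strand, IL1RAP overlaps 2 pseudogenes on its own strand, and the sources used here do not state whether counting used the strand.

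The 250 bases before a RefSeq transcription start are shown for the 3 members that met the DEG criteria and for IL1A, the neighbour of IL1B. The 3 DEGs are the members with the largest called changes. The sequences are from RefSeq (GRCh38.p14), read 5′ to 3′ on the strand of the gene. Capitals mark matches to AP-1 (TGANTCA), C/EBP (TTNNGCAA) or the TATA box (TATAAA). Both strands were searched, together with a longer NF-kB motif. Overlapping matches were allowed.

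IL1B, chr2:112836780-112837029, minus strand: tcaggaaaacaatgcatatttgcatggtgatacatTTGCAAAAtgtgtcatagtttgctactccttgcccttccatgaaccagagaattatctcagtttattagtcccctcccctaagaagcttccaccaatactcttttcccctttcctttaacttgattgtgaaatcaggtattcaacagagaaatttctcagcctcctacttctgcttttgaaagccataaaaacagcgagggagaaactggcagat
IL1A, chr2:112784494-112784743, minus strand: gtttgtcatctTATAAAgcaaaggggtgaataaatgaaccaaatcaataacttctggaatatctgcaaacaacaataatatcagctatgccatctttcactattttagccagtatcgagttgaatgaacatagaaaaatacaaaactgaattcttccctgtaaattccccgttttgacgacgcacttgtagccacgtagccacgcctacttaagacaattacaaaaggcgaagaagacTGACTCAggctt
IL1R2, chr2:101991710-101991959, plus strand: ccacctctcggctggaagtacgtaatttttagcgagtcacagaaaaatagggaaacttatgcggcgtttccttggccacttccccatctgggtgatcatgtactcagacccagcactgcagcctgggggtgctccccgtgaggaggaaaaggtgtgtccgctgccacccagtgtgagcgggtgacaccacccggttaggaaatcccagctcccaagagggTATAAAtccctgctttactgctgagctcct
IL36G, chr2:112977756-112978005, plus strand: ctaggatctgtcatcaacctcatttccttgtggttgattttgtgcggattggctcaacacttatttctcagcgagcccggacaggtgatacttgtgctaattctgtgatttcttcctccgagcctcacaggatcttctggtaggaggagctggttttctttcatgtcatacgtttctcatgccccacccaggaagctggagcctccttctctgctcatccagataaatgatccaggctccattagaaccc

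The IL1B window held a C/EBP match that began at base -215 from the start site. The IL1A window held an AP-1 match at -12 and a TATA match at -239, and a further AP-1 match began at 39 in the transcribed bases that are not shown. The IL1R2 window held a TATA match at -30, and the IL36G window held none of the 4 motifs. IL1A and IL1R2 each have a second RefSeq start. The windows shown for them end at the start of the annotated gene, and the other IL1R2 window held none of the 4 motifs while the other IL1A window held no TATA match. The IL1B window reaches slightly into the annotated gene. For IL36G the window lies wholly inside the annotated gene, which begins at base 112973203, so the bases before that start were not searched. RefSeq had 18 windows of 300 bases (250 before the start and 50 after) for the 10 members, with none for IL18. AP-1 was found in 3 of the 18, against 7.71% of all 35114 windows, although both windows of IL1A overlap and hold the same pair of AP-1 sites, and NF-kB in 1 of the 18, against 5.91%. C/EBP was found in 2 of the 18, against 10.5% of all windows, and the TATA box in 4 of the 18, against 11.5%. A match is a stretch of letters and not evidence of binding.

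Of the 9 members, 5 fell in siE7, none rose and 4 did not pass the test at an adjusted p under 0.05 (edgeR quasi-likelihood F-test, p-values adjusted after Benjamini and Hochberg). Over all genes tested, 16.0% fell, 18.0% rose and 34.0% did either. The members that fell were IL1B, IL1A, IL36G, the antagonist IL1RN and the decoy receptor IL1R2, and these were also the 5 whose libraries did not overlap between groups with siE7 lower, against 22.7% of all genes with siE7 lower, 24.9% with siE7 higher and 47.6% in either direction. IL1B, IL36G and IL1R2 were DEGs (adjusted p under 0.05 and a log2 fold change beyond 1), against 4.84% of all genes that were DEGs with siE7 lower, 7.38% with siE7 higher and 12.2% in either direction. The median log2 fold change of the 9 members was -0.84, beside 0.077 for all genes tested, and 7 of the 9 had a negative sign. None rose at an unadjusted p under 0.05 by edgeR or by DESeq2 after adjustment. Without siE7 replicate 1, 5 members fell, 4 of them DEGs, and 1 rose. In that fit 29.5% of all 15011 genes tested fell, 6.20% were DEGs with siE7 lower, and 28.9% rose.

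**Figure D1:**
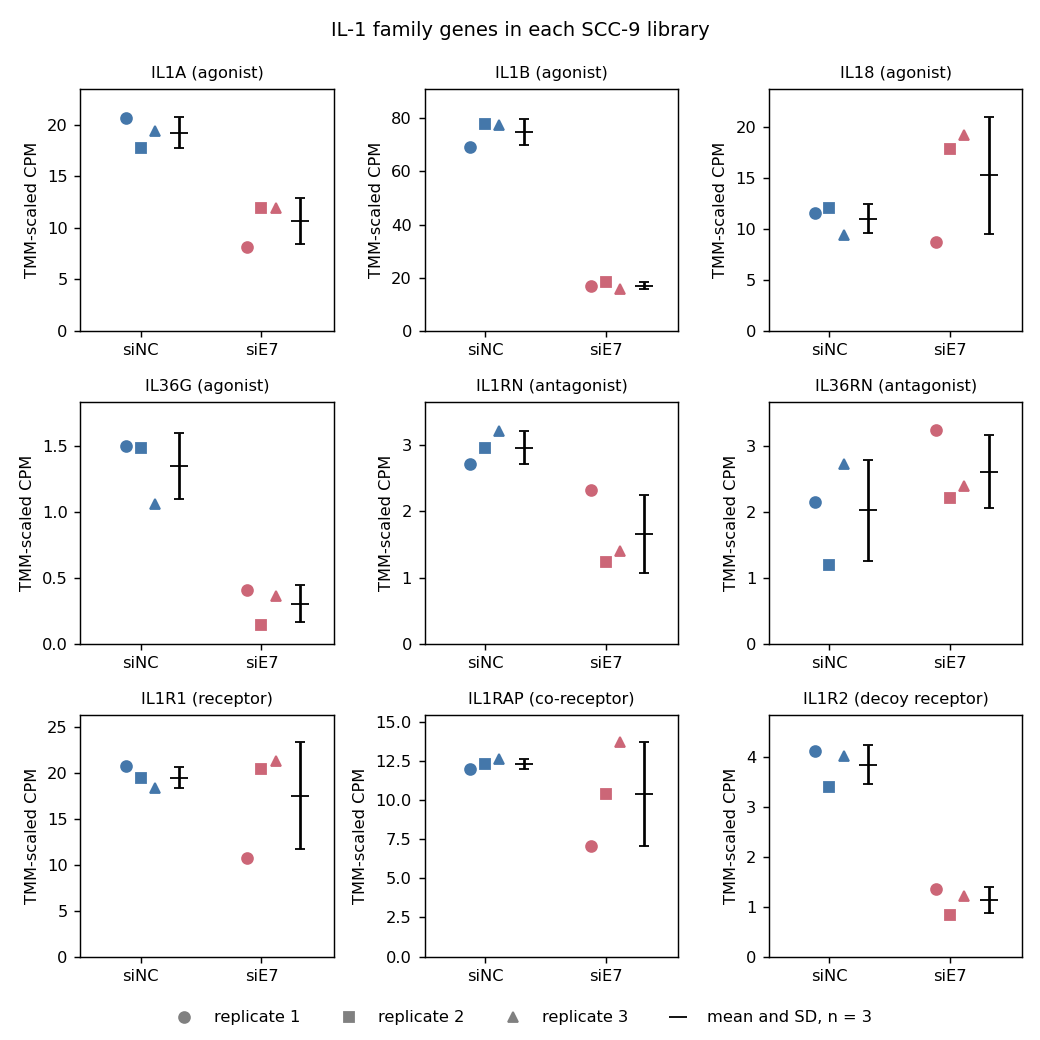
TMM-scaled CPM (y axis, linear from 0) of each of the 9 IL-1 family genes in the siNC and siE7 libraries, 1 panel per gene; symbols give the replicate, and the bar beside each group its mean and SD (n = 3). The siE7 libraries lie below all siNC libraries for IL1A, IL1B, IL36G, IL1RN and IL1R2, and siE7 replicate 1 is the lowest siE7 library for IL1A, IL18, IL1R1 and IL1RAP.

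Among the agonists, IL1B had the smallest adjusted p. It measured 69.1, 77.7 and 77.4 CPM in siNC replicates 1 to 3 and 16.9, 18.3 and 15.7 CPM in siE7 replicates 1 to 3, from between 480 and 2044 counts a library. All siE7 libraries were low and close to each other, and the groups did not overlap. The level was 4.40-fold lower in siE7, with a log2 fold change of -2.14 (SE 0.125, adjusted p = 9.4e-07, edgeR quasi-likelihood test, Benjamini-Hochberg). Across 12 alternative settings its log2 fold change stayed between -2.20 and -1.97, and IL1B passed the test in each of them.

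IL1A, the alarmin that is active without cleavage, also fell. It measured 20.7, 17.7 and 19.4 CPM in siNC and 8.10, 11.9 and 11.9 CPM in siE7. The siE7 libraries were below every siNC library, with siE7 replicate 1 at 68.0% of the mean of the other two. The log2 fold change was -0.85 (SE 0.177, edgeR's quasi-likelihood adjusted p = 0.0036), a 1.81-fold lower level that did not reach the DEG threshold. Without siE7 replicate 1 it was -0.75.

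IL36G, an epithelial agonist of the IL-36 receptor, was scarce. It had 37, 37 and 28 counts in siNC and 12, 4 and 11 counts in siE7. These counts correspond to 1.50, 1.48 and 1.06 CPM in siNC and to 0.405, 0.145 and 0.360 CPM in siE7. The groups did not overlap, although the lowest siE7 library rested on 4 counts. The log2 fold change was -2.12 (SE 0.426, edgeR's quasi-likelihood adjusted p = 0.0031), with the largest SE of the 9 members. It could not be tested where 10 counts were required in every library, and passed in the other 11 settings, with log2 fold changes between -2.43 and -1.80.

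IL18, the agonist that drives interferon gamma production in lymphocytes, did not pass the test. It measured 11.6, 12.0 and 9.39 CPM in siNC and 8.67, 17.8 and 19.2 CPM in siE7. The siE7 libraries fell on both sides of siNC, with replicate 1 below all siNC libraries and replicates 2 and 3 above them. Its log2 fold change was 0.47 (SE 0.258, edgeR's quasi-likelihood adjusted p = 0.18). Without siE7 replicate 1 it was 0.69 (edgeR's quasi-likelihood adjusted p = 4.0e-06), so that the call turned on 1 library.

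The antagonists did not follow a single pattern. IL1RN, which blocks IL1R1, measured 2.71, 2.96 and 3.22 CPM in siNC and 2.33, 1.23 and 1.41 CPM in siE7. The groups did not overlap, but siE7 replicate 1 was close to the lowest siNC library. The log2 fold change was -0.84 (SE 0.280, edgeR's quasi-likelihood adjusted p = 0.038). The call was lost in 6 of 12 settings. Among these, it was lost without siNC replicate 1, 2 or 3 (adjusted p = 0.074, 0.098 and 0.12) and without siE7 replicate 2 or 3 (adjusted p = 0.13 and 0.11), whereas without siE7 replicate 1 the log2 fold change was -1.22 and IL1RN was a DEG (all by edgeR's quasi-likelihood test).

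IL36RN, which blocks the IL-36 receptor, measured 2.15, 1.20 and 2.73 CPM in siNC and 3.24, 2.21 and 2.39 CPM in siE7. The groups overlapped and the spread within siNC was as wide as that between groups. The log2 fold change was 0.37 (SE 0.310, edgeR's quasi-likelihood adjusted p = 0.39), and IL36RN was not called in any setting.

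Among the receptors, the decoy IL1R2 fell. It measured 4.13, 3.40 and 4.01 CPM in siNC and 1.35, 0.833 and 1.21 CPM in siE7, from between 23 and 106 counts a library. The groups were well apart. The level was 3.38-fold lower in siE7, with a log2 fold change of -1.76 (SE 0.258, edgeR's quasi-likelihood adjusted p = 4.3e-04), and it passed in all 12 settings, with values between -1.96 and -1.59.

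IL1R1, the signalling receptor, measured 20.7, 19.4 and 18.4 CPM in siNC and 10.8, 20.5 and 21.3 CPM in siE7. Only siE7 replicate 1 was low, at 51.7% of the mean of the other siE7 libraries, and the groups overlapped. This gave a log2 fold change of -0.16 (SE 0.222, edgeR's quasi-likelihood adjusted p = 0.62). The sign was positive without siE7 replicate 1 (0.037) and without composition scaling (0.026), and IL1R1 was not called in any setting.

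IL1RAP, the accessory protein shared by several receptors of the family, measured 12.0, 12.3 and 12.6 CPM in siNC and 7.08, 10.4 and 13.7 CPM in siE7. The siNC libraries were nearly equal, while the siE7 libraries spread to both sides of them. This gave a log2 fold change of -0.24 (SE 0.216, edgeR's quasi-likelihood adjusted p = 0.41).

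**Figure D2:**
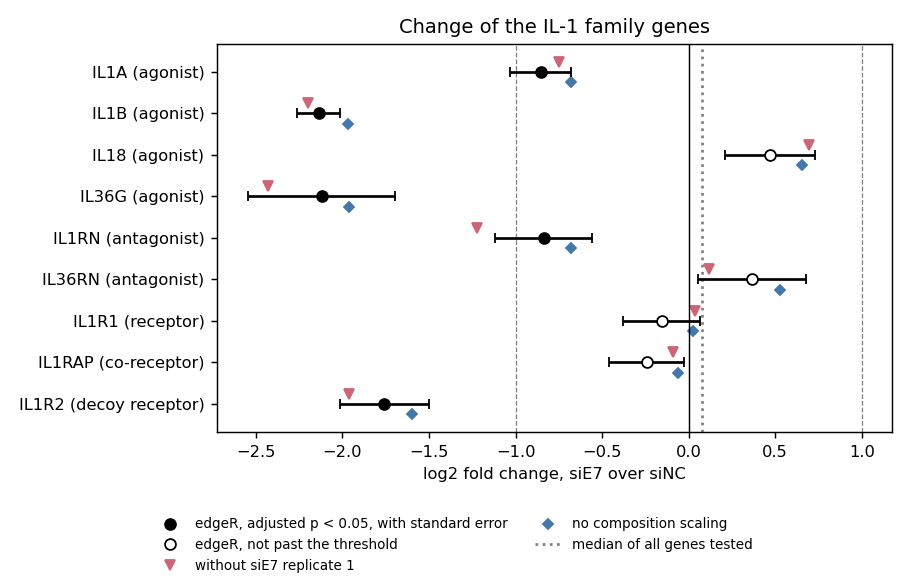
Log2 fold change of siE7 over siNC (x axis) for the 9 IL-1 family genes, ordered by role, with the standard error as bars; filled circles passed the test, triangles leave out siE7 replicate 1, diamonds use library totals only, and the dotted line is the median of all genes tested (0.077). IL1B, IL36G and IL1R2 lie beyond -1 under all 3 fits, and IL1R1 lies near 0 with its sign changing between them.

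The siE7 replicate 1 differed from siE7 replicates 2 and 3 in opposite directions for different members. Its level was 46.8% of their mean for IL18, 58.7% for IL1RAP and 51.7% for IL1R1. It was 176% of their mean for IL1RN, 160% for IL36G, 141% for IL36RN and 132% for IL1R2. For IL1B it was 99.5%, at the level of the other siE7 libraries. Over all genes tested, the log2 ratio of this library to the mean of the other siE7 libraries had a median of -0.015 and ran from -1.06 at the 5th percentile to 0.59 at the 95th.

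Levels of different genes were compared per kilobase of merged exons (RPKM, from the TMM-scaled CPM). Exons were merged over all annotated transcripts, such as 14 for IL1RN, 17 for IL1RAP, 8 for IL1B and 1 for IL1A. The order of genes, the shares and the size of the ratios below depend on these lengths. The log2 difference of a ratio between groups does not. In siNC, IL1B led with 24.8 ± 1.63 RPKM, followed by IL1A with 9.54 ± 0.736, IL18 with 4.22 ± 0.539 and IL1R1 with 2.74 ± 0.164 RPKM. These 4 were separated from each other in every siNC library. IL1R2 (1.30 ± 0.132 RPKM), IL1RAP (1.10 ± 0.0294), IL36G (0.981 ± 0.181), IL1RN (0.794 ± 0.0676) and IL36RN (0.631 ± 0.240) followed, and the libraries of neighbours in this order overlapped or nearly touched. In siE7 the order changed at the top. IL18 (5.85 ± 2.20 RPKM), IL1B (5.65 ± 0.438) and IL1A (5.27 ± 1.09) had overlapping libraries, and IL1R1 followed at 2.46 ± 0.820 RPKM. IL36G was last, at 0.221 ± 0.101 RPKM.

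The share of IL1B in the summed RPKM of the measured ligands and antagonists was 57.2%, 62.3% and 62.1% in siNC and 37.8%, 30.6% and 26.2% in siE7. The share of IL18 went from between 8.71% and 11.1% in siNC to 22.3%, 34.3% and 37.1% in siE7. IL1A held between 21.2% and 25.5% in siNC and between 26.9% and 29.7% in siE7. The summed level itself was between 40.1 and 41.4 RPKM in siNC and between 14.9 and 19.9 RPKM in siE7, so that the shares are parts of a smaller sum in siE7.

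The balance of agonists and antagonists within a library was described by ratios of RPKM, with no test. IL1B to IL1RN was 31.6, 32.5 and 29.8 in siNC and 9.03, 18.5 and 13.9 in siE7, with no overlap and a difference of -1.24 on the log2 scale. IL1A to IL1RN was 14.1, 11.1 and 11.1 in siNC and 6.44, 17.9 and 15.7 in siE7, with siE7 values on both sides of siNC and geometric means of 12.0 and 12.2. Thus the transcript ratio to the shared antagonist was lower in siE7 for IL1B and overlapped between groups for IL1A. IL36G to IL36RN was 1.63, 2.88 and 0.909 in siNC and 0.292, 0.153 and 0.352 in siE7, with no overlap and a log2 difference of -2.69. For the receptors, IL1R1 to IL1R2 was 2.08, 2.37 and 1.90 in siNC and 3.32, 10.2 and 7.30 in siE7, a log2 difference of 1.57 without overlap. The ratio of signalling receptor to decoy was therefore higher in every siE7 library, and least so in siE7 replicate 1. IL1B to IL1A, a ratio added after the values were seen, was 2.24, 2.94 and 2.68 in siNC and 1.40, 1.03 and 0.882 in siE7.

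**Figure D3:**
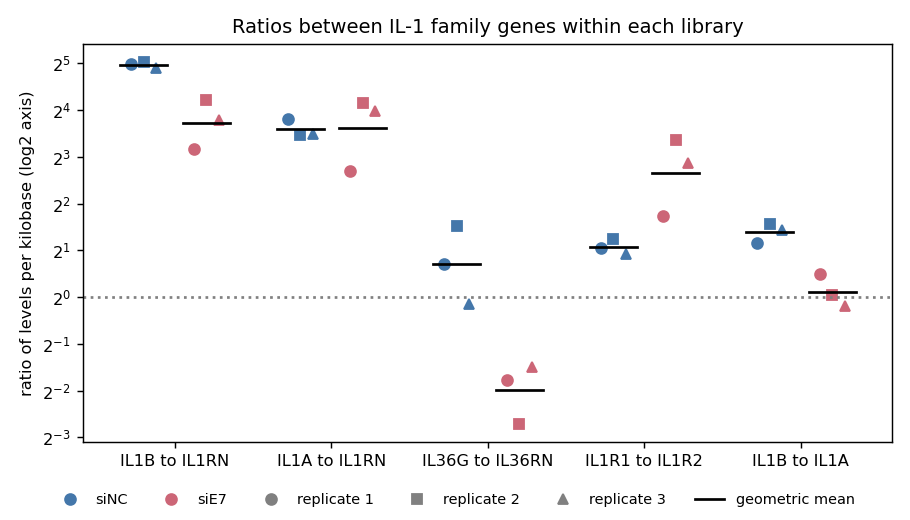
Ratios of RPKM between pairs of IL-1 family genes (y axis, log2 scale) in each siNC and siE7 library; symbols give the replicate, lines the geometric mean of each group, and the dotted line equal levels. The ratios IL1B to IL1RN, IL36G to IL36RN and IL1B to IL1A are lower in all siE7 libraries than in all siNC libraries, IL1R1 to IL1R2 is higher, and IL1A to IL1RN overlaps.

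Within the 2q14 ligand cluster, which spans 360 kb from IL1A to IL1RN, 5 of the 9 protein-coding genes were tested and all 5 are members. The nearest tested genes outside it, CKAP2L, a mitotic spindle gene, and PSD4, a guanine nucleotide exchange factor, were also lower in siE7. CKAP2L went from 34.1 ± 4.06 to 13.8 ± 4.28 CPM (log2 fold change -1.31, edgeR's quasi-likelihood adjusted p = 8.3e-04). PSD4 went from a mean of 65.1 to a mean of 19.8 CPM (log2 fold change -1.71, edgeR's quasi-likelihood adjusted p = 1.5e-05). Thus 6 of the 7 tested genes of this stretch fell, against 16.0% of all genes tested. Among them, IL1A, IL1B, IL36G and IL1RN are members already counted above, and IL1RN lost its call in 6 of 12 settings. IL36RN, between IL36G and IL1RN, did not pass the test.

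The 2q12 receptor cluster spans 461 kb, and 5 of its 6 protein-coding genes were tested. IL1R2 lies at its start, next to LINC01127, a long non-coding RNA on the same strand, which went from 5.74 ± 0.737 to 0.432 ± 0.0930 CPM (log2 fold change -3.71, edgeR's quasi-likelihood adjusted p = 4.8e-06). The last tested gene of the cluster, IL18R1, the receptor of IL-18, rose from 0.715 ± 0.253 to 1.95 ± 0.346 CPM (log2 fold change 1.45, edgeR's quasi-likelihood adjusted p = 0.0074). IL1RL1, the receptor of IL-33, had a log2 fold change of 0.91 and adjusted p = 0.077 by edgeR's quasi-likelihood test, and it overlaps IL18R1 on the same strand, so their counts may be divided with error. It passed with 10 counts in every library (0.93, adjusted p = 0.044) and without composition scaling (1.07, adjusted p = 0.037), both by edgeR. IL1RL2, the IL-36 receptor, had a log2 fold change of 0.30 and the next tested gene, MFSD9, one of -0.31, and neither passed the test (edgeR's quasi-likelihood adjusted p = 0.29 and 0.11). MFSD9 passed without siE7 replicate 1 (-0.31, edgeR's quasi-likelihood adjusted p = 0.015).

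**Figure D4:**
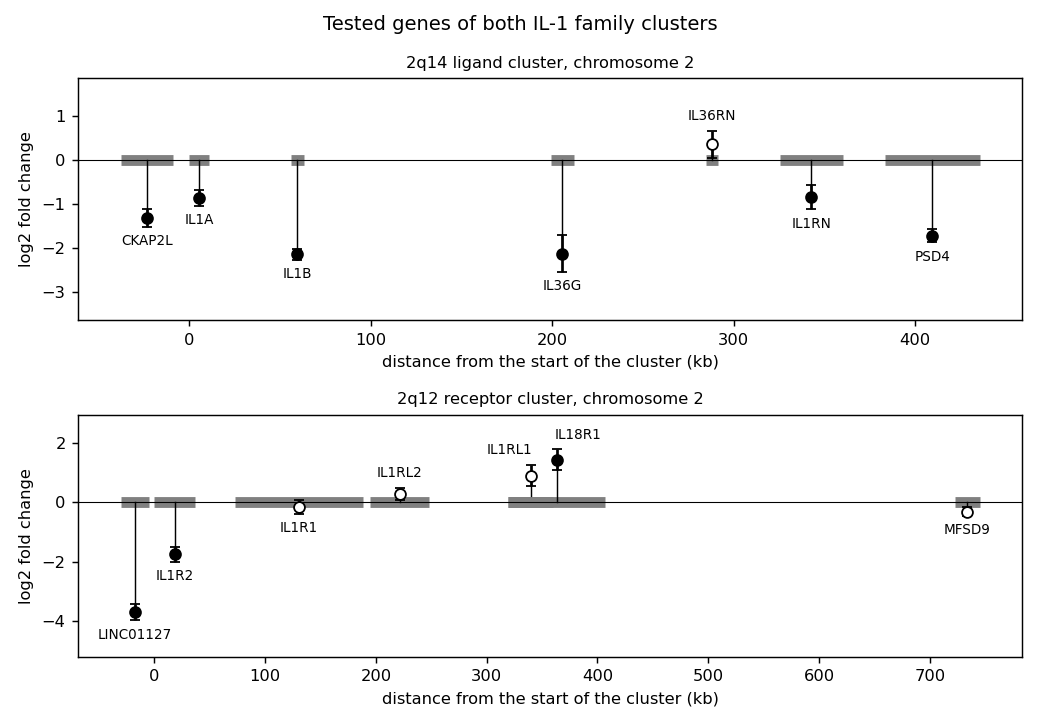
Log2 fold change of siE7 over siNC with its standard error (y axis) for the tested genes of both IL-1 family clusters on chromosome 2 and their nearest tested neighbours, against the distance from the cluster's start (x axis, kb); grey bars are the genes, and filled circles passed the test. In the ligand cluster only IL36RN lies above 0. In the receptor panel IL1R2 and the neighbour LINC01127 lie far below 0, while IL18R1, IL1RL1 and IL1RL2 lie above it, of which only IL18R1 passed the test.

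Of 12 further ligands and receptors of the family, 10 were in the table and 5 were tested. The other ligands IL36A, IL36B, IL37 and IL1F10 were too scarce to test. IL18R1 and IL18BP rose and none fell, also at an unadjusted p under 0.05 by edgeR or by DESeq2 after adjustment. Over all genes tested, 18.0% rose and 16.0% fell. SIGIRR did not pass (log2 fold change -0.51, edgeR's quasi-likelihood adjusted p = 0.13). Without siE7 replicate 1 it passed as lower (-0.82, edgeR's quasi-likelihood adjusted p = 0.0020), in a fit in which 29.5% of all genes fell. IL18BP, the secreted protein that neutralises IL-18, measured 5.75, 4.52 and 5.15 CPM in siNC and 10.2, 8.04 and 7.85 CPM in siE7. All siE7 libraries were above all siNC libraries, with a log2 fold change of 0.76 (SE 0.188, edgeR's quasi-likelihood adjusted p = 0.0094), and the call was lost without siNC replicate 2 (0.67, adjusted p = 0.062). IL18BP overlaps NUMA1 on the opposite strand.

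In the list of genes for processing and release of these cytokines, 6 of 27 tested genes rose (22.2%) and 12 fell (44.4%). Over all genes tested, 18.0% rose and 16.0% fell. The median log2 fold change of the list was -0.28. NLRP3, the sensor of the best-known inflammasome, measured 20.2, 17.2 and 22.4 CPM in siNC and 5.13, 4.31 and 4.64 CPM in siE7 (log2 fold change -2.09, edgeR's quasi-likelihood adjusted p = 8.3e-06). GSDMA, a pore-forming gasdermin of keratinocytes, went from 5.83 ± 0.781 to 0.327 ± 0.273 CPM (log2 fold change -4.13). The siE7 libraries of GSDMA held 19, 4 and 6 counts, and without replicate 1, the highest, the log2 fold change was -5.11. S100A13, which takes part in IL-1 alpha release, went from 252 ± 9.73 to 134 ± 12.1 CPM (log2 fold change -0.91), and was a DEG without siE7 replicate 1 (-1.05). NLRP1, the main inflammasome sensor of human keratinocytes, moved the other way, from 16.0 ± 0.799 to 27.8 ± 0.569 CPM (log2 fold change 0.79). GSDMB, a further gasdermin, and TXNIP, an NLRP3 binding protein, also rose (log2 fold changes 1.03 and 0.83). GSDMB stood short of the DEG threshold without siE7 replicate 1 (0.995), by DESeq2 (0.975), with RLE scaling (0.984) and without siNC replicate 3 (0.897). These 5 genes passed the test, as did NLRP3. CASP1, the protease of IL-1 beta and IL-18, was named after the values were seen. It measured 7.70, 8.49 and 6.17 CPM in siNC and 7.76, 11.6 and 12.4 CPM in siE7. Replicate 1 lay within the siNC libraries and replicates 2 and 3 above them, and CASP1 did not pass the test (log2 fold change 0.50, edgeR's quasi-likelihood adjusted p = 0.085). It passed without siE7 replicate 1 (0.63, edgeR's quasi-likelihood adjusted p = 2.3e-04).

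In the list of genes for signalling from the IL-1 receptor, 10 of 44 tested genes rose and 10 fell (22.7% each). These shares were near those of all genes tested, of which 18.0% rose and 16.0% fell. The median log2 fold change of the list was -0.03. The adaptor MYD88 fell from 79.0 ± 0.771 to 38.4 ± 4.69 CPM (log2 fold change -1.04, edgeR's quasi-likelihood adjusted p = 1.0e-04). TAB3, a subunit of the TAK1 kinase complex, and MAP2K3, a kinase upstream of p38, fell by 1.20 and 1.07 on the log2 scale. SQSTM1, a scaffold that binds TRAF6, the AP-1 subunit JUN and the NF-kB inhibitor NFKBIB rose (log2 fold changes 0.85, 0.48 and 0.46). JUN lost its call without siNC replicate 2 or 3, and NFKBIB without siNC replicate 1, 2 or 3. With single libraries left out, the counts of this list were 11 higher and 18 lower without siE7 replicate 1, 2 higher without siNC replicate 1, 2 or 3, and 6 lower without siNC replicate 2 or 3. The share of all genes that passed moved the same way, from 34.0% to 58.4% without siE7 replicate 1 and to between 20.9% and 21.4% without 1 siNC library.

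Among genes that IL-1 is known to induce in keratinocytes, 2 of 31 tested genes rose (6.45%) and 17 fell (54.8%). Over all genes tested, 18.0% rose and 16.0% fell. The median log2 fold change of the list was -0.999. IL23A, a subunit of interleukin 23, fell from 25.7 ± 2.70 to 3.37 ± 0.325 CPM (log2 fold change -2.93, edgeR's quasi-likelihood adjusted p = 8.0e-07). MMP9, a matrix metalloproteinase, fell from 14.4 ± 1.92 to 1.54 ± 0.620 CPM (log2 fold change -3.21), and the neutrophil chemokine CXCL1 from 45.2 ± 3.19 to 16.4 ± 1.90 CPM (log2 fold change -1.46). SOD2, the mitochondrial superoxide dismutase, and CFB, complement factor B, rose (log2 fold changes 0.80 and 1.34). IL6 and CXCL8, named after the values were seen as common readouts of IL-1, did not pass the test. IL6 measured 4.87 ± 0.825 CPM in siNC and 5.03 ± 1.18 CPM in siE7, and CXCL8 7.45 ± 0.560 and 10.9 ± 5.20 CPM, with siE7 replicate 1 at 4.93 CPM, below every siNC library, and replicates 2 and 3 both at 13.9 CPM. Without siE7 replicate 1, CXCL8 passed (log2 fold change 0.84, edgeR's quasi-likelihood adjusted p = 6.2e-07), and the log2 fold change of IL6 turned from 0.046 to -0.22, still without passing. CFB shares its strand and part of its span with C2, and NLRP1, NLRP3 and S100A13 overlap unnamed genes on their own strand. S100A13, SQSTM1, NFKBIB, TAB3, MMP9, CKAP2L and PSD4 overlap genes on the opposite strand, so their counts are less certain. The list was chosen from general knowledge but with earlier results of these data known. Its counts are therefore a description and not an independent check, and its genes also respond to other stimuli. Without siE7 replicate 1, 4 of its genes rose and 20 fell, in a fit in which 28.9% of all genes rose and 29.5% fell.

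The cell line was checked against cell type markers. All 10 squamous epithelial markers were tested, and their summed level was between 25044 and 26544 CPM in siNC and between 22897 and 29214 CPM in siE7. Of these markers 8 passed the test, 2 of them higher, whereas 34.0% of all genes tested passed, 18.0% higher and 16.0% lower. KRT17 and PERP were higher, and KRT5, CDH1, EPCAM, TP63, SFN and DSP were lower. CDH1 and PERP were DEGs (log2 fold changes -1.03 and 1.17). KRT6A did not pass (-0.24, edgeR's quasi-likelihood adjusted p = 0.16), but passed as lower without siE7 replicate 1 (-0.44, edgeR's quasi-likelihood adjusted p = 3.5e-08). Of 9 macrophage and monocyte markers, 4 were in the table, and PTPRC, AIF1, CD163, LYZ and TYROBP had no entry. Their summed level was between 7.57 and 7.81 CPM in siNC and between 3.80 and 6.92 CPM in siE7. Neither of the 2 tested markers, CD14 and CSF1R, passed the test by edgeR, with CSF1R at an unadjusted p of 0.043. Without siE7 replicate 1, CD14 and CSF1R passed as lower (log2 fold changes -0.996 and -0.83, edgeR's quasi-likelihood adjusted p = 0.0022 and 0.0014). ITGAM was tested in that fit and did not pass (edgeR's quasi-likelihood adjusted p = 0.096). In that fit 29.5% of all genes fell. The summed level of 7 fibroblast markers was between 16.5 and 19.7 CPM in siNC and between 18.3 and 24.2 CPM in siE7. COL1A1 and COL1A2 passed neither with all libraries nor without siE7 replicate 1. DCN was too scarce to test with all libraries, with 0, 1 and 2 counts in siNC and 8, 11 and 19 in siE7. Without siE7 replicate 1 it was a DEG, higher in siE7 (log2 fold change 3.50, edgeR's quasi-likelihood adjusted p = 8.9e-04). In that fit 28.9% of all genes rose. For 7 T cell markers the sum did not exceed 0.527 CPM, and for 6 endothelial markers it did not exceed 0.568 CPM, in any library. The part of these markers in the results was not tested.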

How the data were processed

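Counts per gene were used as deposited by the authors, who made stranded libraries of polyadenylated RNA and sequenced them in paired-end mode on a NovaSeq instrument. The submitters' processing notes name HISAT2, DESeq2 and GRCh38, and the counting tool and annotation release are not given in the sources used here. The samples were grouped by title.

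Counts were filtered (filterByExpr), scaled by TMM and tested with edgeR 4.0.16 (quasi-likelihood F-test, robust, R 4.3.3), with Benjamini-Hochberg adjustment over all 14661 genes tested. A gene passed at an adjusted p under 0.05, and a DEG also had a log2 fold change beyond 1. The exact permutation test of 3 against 3 libraries cannot go below 0.1. Exon lengths, positions and overlaps are from GENCODE v44, which matched 25283 gene identifiers and not that of SOD2.

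The members and lists were chosen with earlier results of these data known. The genes named are the members, MKI67, the 3 genes with the smallest p-values in each direction among those that passed in each list, and the tested genes of both clusters with their neighbours. CASP1, IL6, CXCL8, SIGIRR, the cell type markers and the list genes described as too scarce were named outside this rule. Alternatives were DESeq2 1.42.0, RLE scaling, no composition scaling, no filter, 10 counts in every library, a replicate block, and 1 library omitted at a time. Figures were drawn with matplotlib 3.10.9.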

Additional observations from a re-analysis of the deposited data

How the results depend on the processing

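The members that fell numbered 5, with 3 DEGs, by edgeR, by DESeq2 and with a replicate block. IL1A (log2 fold change -0.94 to -0.68), IL1B, IL1R2 and IL36G passed in every setting in which they were tested. IL1RN lost its call in 6 of 12 settings, including no composition scaling (-0.68, edgeR's quasi-likelihood adjusted p = 0.070), and IL18 was called only without siE7 replicate 1. The sign of IL1R1 was reversed with no composition scaling (0.026) and without siE7 replicate 1 (0.037), and was between -0.32 and 0.037 with each library left out. No composition scaling shifted the log2 fold changes of the genes tested by a median of 0.17. With each library left out in turn, 0 to 1 members rose. The further ligands and receptors that rose numbered 1 to 2 and those that fell 0 to 1. In the receptor signalling list 2 to 11 genes rose and 6 to 18 fell, and 2 to 4 of the genes induced by IL-1 rose. In the fits with 1 library left out, between 10.6% and 28.9% of all genes tested rose and between 10.3% and 29.5% fell. Genes that passed numbered 3153 to 8765 over all settings, the highest without siE7 replicate 1, against 4990. The cause was not tested.

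Deviations of same-numbered libraries from their group means correlated at -0.04, -0.02 and -0.05. These values show no shared deviation, but they cannot tell whether the samples were handled as pairs. With the replicate block 4947 genes passed, and IL1B had a log2 fold change of -2.14. At this depth IL36G rested on as few as 4 counts a library.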
